A study of Homo sapiens with 4 samples.

Results

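The clustered protocadherins are neighbouring cell-surface genes on chromosome 5 at 5q31, arranged as an alpha, a beta and a gamma cluster. Their expression was examined in MDA-MB-231, a human triple-negative breast cancer line, from which a pair of sublines had been sorted. Members were taken as the rows of the count table whose Ensembl identifier carries a symbol that begins with PCDHA, PCDHB or PCDHG followed by a digit or by A, B or C. They numbered 60 of 43714 rows, of which 16 lie in the alpha, 20 in the beta and 24 in the gamma cluster. Coding genes make up 53 of the 60, the others being 6 pseudogenes and the antisense gene PCDHB1-AS1. The family was selected on the fold changes between the sublines in this same table, where many of its rows were lower in one of them. Fold changes and calls for the members between the lines are therefore given as a description of them, and nothing is supported by how many were called.

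Clustered protocadherins are cadherin-like proteins that bind copies of themselves on neighbouring cells. In neurons, each cell switches on a small set of them, which gives its surface a recognisable identity. Each alpha or gamma gene begins with its own promoter and a large first exon that encodes the extracellular part, and that exon is spliced to a few constant exons shared by the whole cluster, which encode the common cytoplasmic end. Beta genes are single exons with no constant part. Promoter choice depends on an upstream element with the core CGCT, on the insulator protein CTCF, on the cohesin ring that draws promoters to distant enhancers, and on DNA methylation.

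Both lines carried the 7TGP vector, whose 7 TCF sites switch on EGFP when beta-catenin reaches the TCF/LEF factors, the last step of canonical Wnt signalling. The transfected cells had been selected with puromycin at 3 ug/mL, and both lines were kept in DMEM containing 10% FBS. Sorting for EGFP was repeated over 8 rounds, which left a reporter-positive line (positive line below) in which over 80% of cells had EGFP and a reporter-negative line (negative line below) in which over 95% lacked it. Each line gave 2 libraries from total RNA, of 63034563 and 58429705 counts for negative libraries 1 and 2 and 62539034 and 55894092 for positive libraries 1 and 2. Nothing in the labels says that the libraries of a line are separate cultures, and p-values then cover only library-to-library spread, which may be technical. With 1 line per state of the reporter, reporter activity cannot be told apart from whatever else sets the lines apart. In bulk RNA, fewer cells with a transcript and less of it per cell cannot be told apart either.

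The promoters of the members were compared within and between the clusters. Of the 53 coding members, 47 have an entry in the RefSeq promoter table (GRCh38.p14), and the 250 bases before each start were searched on both strands for motifs whose letters were chosen after looking at these promoters. ATGTCGCT was found in 9 of 13 alpha promoters and in no beta or gamma promoter, against 0.182% of all 35116 promoters in the table. GGTGGCGCT was found in 12 of 14 beta promoters and in no alpha or gamma promoter, against 0.410% of all promoters. GNCGCTGT, where N is any base, was found in 17 of 20 gamma promoters, in 1 of 14 beta and 5 of 13 alpha promoters, against 3.34% of all promoters. All of these motifs hold the letters CGCT and overlap in that core, and ATGTCGCT followed by GT also matches the gamma motif. Because the letters were chosen from these promoters, the shares within and between clusters follow in part from that choice. A match is a description of letters and not evidence of a bound site.

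The CGCT lay at a similar distance from the start in all clusters, a median of 48 bases before it in 9 alpha promoters (range 38 to 81), 62 in 11 beta promoters (38 to 79) and 58 in 17 gamma promoters (39 to 199). PCDHB5 also has the beta motif, but a window of 30 bases around it runs past the start, and it is left out of those distances. The windows below come from the promoters that the results turn on, on the forward strand, with the motif in capitals. The first are alpha members, whose reads are few:
PCDHA1 (chr5:140786086-140786115): attggccacatgATGTCGCTgtacaccaca
PCDHA7 (chr5:140834172-140834201): gatggccacatgATGTCGCTctttaccgca
Next are 3 beta members that were lower in the positive line:
PCDHB9 (chr5:141187074-141187103): ggaagccacaaGGTGGCGCTgcagactgaa
PCDHB10 (chr5:141192299-141192328): ggaggccacacGGTGGCGCTgcaggctaaa
PCDHB2 (chr5:141094544-141094573): aagagacgcggGGTGGCGCTgcagccttag
They can be set beside 3 beta members that were not called:
PCDHB4 (chr5:141121723-141121752): tcaagacgcagGGTGGCGCTgcaggctaag
PCDHB16 (chr5:141182310-141182339): tgagaacgcgtGGTGGCGCTgcaggttaag
PCDHB15 (chr5:141245314-141245343): agacaacgcatGGTGGCGCTgcaggctaag
The last are gamma members, the 2 with the densest reads, the one with the lowest fold change and one whose fold change was above 0:
PCDHGB1 (chr5:141350025-141350054): gacaacctctgggcGCCGCTGTcgaccaaa
PCDHGB2 (chr5:141359921-141359950): gaaaacctctgagcGTCGCTGTtggtcaaa
PCDHGA10 (chr5:141412931-141412960): ttaggactctgagcGCCGCTGTtcacctac
PCDHGA3 (chr5:141343767-141343796): ttaggcctcttagtGTCGCTGTtgaccact
Windows were taken only where the motif matched, so the capitals are the same within a cluster by construction, apart from the free base of the gamma motif. Distances count from the RefSeq start, which can differ from the gene start used for the count rows. The PCDHB16 window, for example, lies inside its row, which begins at 141181399. PCDHB8, which was lower, lacks the exact beta motif in the searched stretch, as does PCDHB1, which had almost no reads. PCDHGB3, PCDHGB7 and PCDHGA11 lack the gamma motif, and PCDHA9, PCDHA11, PCDHAC1 and PCDHAC2 lack the alpha motif.

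The deposited counts cover whole gene spans with introns, and a read is counted at every gene it overlaps. This was seen in the nested spans of the alpha and gamma clusters, where the outer span had at least the count of the inner span in 140 of 140 comparisons (35 neighbouring pairs in 4 libraries). Alpha and gamma rows therefore repeat the same reads many times over. For these clusters the count of each span minus that of the next span nested in it was used, called a segment here. A segment runs from a gene's start to the next start in the nest. It usually holds the gene's own first exon and the intron after it, but where an annotated first exon runs past the next start, as in PCDHGB4 and PCDHA10, the rest of that exon falls in the following segment. The last segment of a cluster (PCDHAC2 or PCDHGC5) also holds the constant exons shared by all its genes. Further listed rows overlap some segments, among them those of PCDHGB1, PCDHGA11, PCDHGA12 and PCDHGC3. Reads of such rows may be counted in the segment as well. Beta genes do not nest and were used as deposited.

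The beta and gamma totals were of similar size, and alpha reads were rare. The totals are measured differently, since beta is a sum over separate rows and alpha and gamma are whole spans with introns. The alpha cluster, read as the span of PCDHA1 (chr5:140786136-141012347, GENCODE release 29 on GRCh38), had 207 and 293 counts in the negative libraries and 129 and 107 in the positive libraries. Summed beta genes and pseudogenes had 8051 and 7453 counts in the negative and 4473 and 3941 in the positive libraries. For the gamma cluster, read as the span of PCDHGA1 (chr5:141330571-141512981), the counts were 7678 and 7025 against 4735 and 4178. In each cluster both positive libraries lay below both negative libraries.

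In CPM, which scale counts to the TMM library size, the alpha total was 4.02 ± 1.07 CPM in the negative and 2.05 ± 0.00838 CPM in the positive line (SD over its libraries, n = 2 here and below), so that 51.0% was left. The beta total was 124 ± 3.85 CPM against 73.2 ± 2.82 CPM, or 59.0% left. The gamma total was 118 ± 4.63 CPM against 77.6 ± 3.07 CPM, or 65.9% left. Reporter-negative library 2 had more alpha reads than library 1 (4.77 against 3.26 CPM), and without it the log2 ratio of the alpha totals was -0.67 instead of -0.97.

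**Figure D1:**
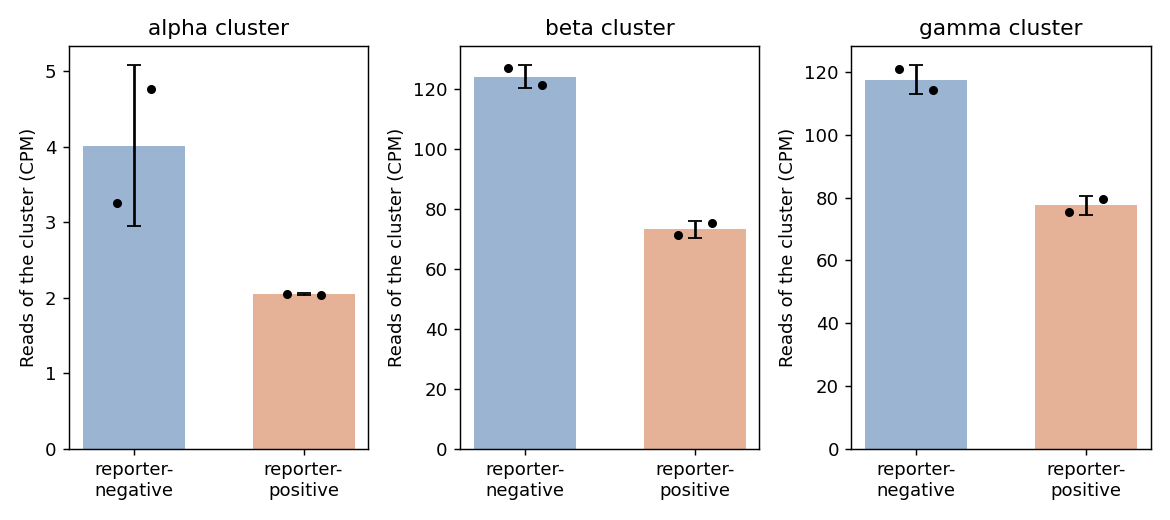
Reads of each protocadherin cluster in CPM (vertical axes, starting at 0, on a separate scale for each cluster) in the negative and positive lines. Bars are means of 2 libraries, error bars the SD and points the libraries. Both positive points lie below both negative points in each cluster, from 4.02 to 2.05 CPM on average in alpha, 124 to 73.2 in beta and 118 to 77.6 in gamma.

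As deposited, 58 of the 60 rows had enough reads to test. In edgeR's quasi-likelihood test with Benjamini-Hochberg adjustment over all 30952 rows tested, 48 of the 58 were lower in the positive line and 0 were higher, where 10.9% of all tested rows were lower and 11.6% higher. Their median log2 fold change was -0.75 and that of all rows -0.00. Both positive libraries lay below both negative libraries in 51 of the 58, against 29.5% of all rows. These counts repeat shared reads in 2 of the clusters, and the contrast is the one for which the family was noticed, so nothing is read from them.

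Beta genes do not nest, though each overlaps another listed row and may share reads with it, and their fold changes spread widely. Of 15 tested coding beta genes, 9 were lower, 0 higher and 6 not called, where 10.9% of all tested rows were lower and 11.6% higher, with log2 fold changes from -1.29 to 0.52 and a median of -0.83. The 9 lower genes (PCDHB2, PCDHB3, PCDHB8, PCDHB9, PCDHB10, PCDHB11, PCDHB12, PCDHB13 and PCDHB14) summed to 108 and 104 CPM in the negative and 53.7 and 56.5 CPM in the positive libraries. The 6 others (PCDHB4, PCDHB5, PCDHB6, PCDHB7, PCDHB15 and PCDHB16) summed to 1004 and 949 counts against 1008 and 919, or 15.8 and 15.5 CPM in the negative libraries and up to 17.5 CPM in the positive ones. The genes are split here by the call itself, so the sums describe the groups and compare nothing.

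PCDHB9, in which the fold change was the lowest of the beta genes, had 1158 and 1058 counts in the negative libraries and 441 and 391 in the positive libraries. That is 17.7 ± 0.715 against 7.24 ± 0.312 CPM, a log2 fold change of -1.29 (standard error, SE, 0.10). Its neighbour PCDHB10 had 1184 and 1117 against 542 and 476 counts, a log2 fold change of -1.06 (SE 0.09). These adjoining genes encode closely related receptors, and 35.4% of the 50-base words of PCDHB10 occur in another protocadherin first exon. PCDHB9 alone holds 23.2% of all words of PCDHB10. Reads of one can therefore be counted at the other, and the separate values of such pairs are uncertain.

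PCDHB2, the first well-covered beta gene along the chromosome, had 909 and 870 against 411 and 396 counts, a log2 fold change of -1.02 (SE 0.10). The antisense gene PCDHB1-AS1 had 668 and 655 against 310 and 273 counts and a log2 fold change of -1.06 (SE 0.11). Its span overlaps those of PCDHB1 and PCDHB2, so its reads and those of PCDHB2 cannot be told apart. In both rows the positive libraries lay below the negative ones, as in 29.5% of all tested rows.

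PCDHB11 had 1088 and 1024 counts in the negative and 587 and 499 in the positive libraries, a log2 fold change of -0.84 (SE 0.09). PCDHB13 had 954 and 917 against 518 and 428, a log2 fold change of -0.87 (SE 0.10). PCDHB8 had 612 and 590 against 352 and 273, a log2 fold change of -0.83 (SE 0.12). The values of these 3 receptor genes lie close together, and PCDHB8 shares 33.0% of its 50-base words with PCDHB13. PCDHB12 had 374 and 336 against 177 and 167 counts, a log2 fold change of -0.92 (SE 0.15). The smallest difference among the lower beta genes was that of PCDHB14, with 507 and 388 against 314 and 281 counts and a log2 fold change of -0.47 (SE 0.14), which was not called without negative library 1. PCDHB3, with 103 and 67 against 31 and 48 counts and a log2 fold change of -0.96 (SE 0.31), was also not called without that library, without positive library 1 or with DESeq2.

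Among the beta genes that were not called, PCDHB16 had 366 and 382 counts in the negative and 361 and 338 in the positive libraries, or 5.99 ± 0.322 against 6.10 ± 0.497 CPM. It lies directly before PCDHB9 on the chromosome, so genes with a log2 fold change of 0.02 and of -1.29 stand side by side. PCDHB7 had 169 and 167 against 138 and 143 counts, and PCDHB15, the last of the cluster, 170 and 135 against 167 and 138. The libraries of the lines overlapped in CPM for PCDHB7, PCDHB15 and PCDHB16. A p-value that misses the threshold does not show that these levels were equal.

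PCDHB6 and PCDHB4 had values on the other side of 0. PCDHB6 had 1.94 and 1.97 CPM in the negative and 3.12 and 2.46 CPM in the positive libraries, a log2 fold change of 0.52 (SE 0.19). It passed in the higher direction under RLE scaling, with the library number as a block and without positive library 2, with Benjamini-Hochberg adjusted p of 0.0475, 0.0399 and 0.0126 against 0.0580 in edgeR's test as described. PCDHB4 had 1.01 and 1.16 against 1.23 and 1.83 CPM, a log2 fold change of 0.49 (SE 0.26), and passed without positive library 1, at an adjusted p of 0.0314. For both genes the positive libraries lay above the negative ones. PCDHB5 had 1.76 and 1.19 against 1.10 and 1.43 CPM, with overlapping libraries.

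The pseudogenes of the cluster had few reads. PCDHB18P had 71 and 50 counts in the negative and 30 and 21 in the positive libraries and was lower, at a log2 fold change of -1.13 (SE 0.32), though not with DESeq2, without negative library 1 or without positive library 2. PCDHB17P had 57 and 48 against 41 and 26 counts and PCDHB19P 29 and 34 against 21 and 15, and neither was called. PCDHB1 itself had 1 and 5 against 0 and 1 counts and was not tested.

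The beta genes that were lower were mostly the more abundant ones. Counted per kilobase of the gene, negative levels ran from 0.404 to 5.60 CPM per kb in the 9 lower genes and from 0.283 to 1.20 in the 6 others. Spearman's coefficient between this level and the log2 fold change was -0.65 over the 15 tested coding genes, which share libraries and in part sequence, and it is given as a description only. The negative level also enters the fold change, so the measures are not independent.

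**Figure D2:**
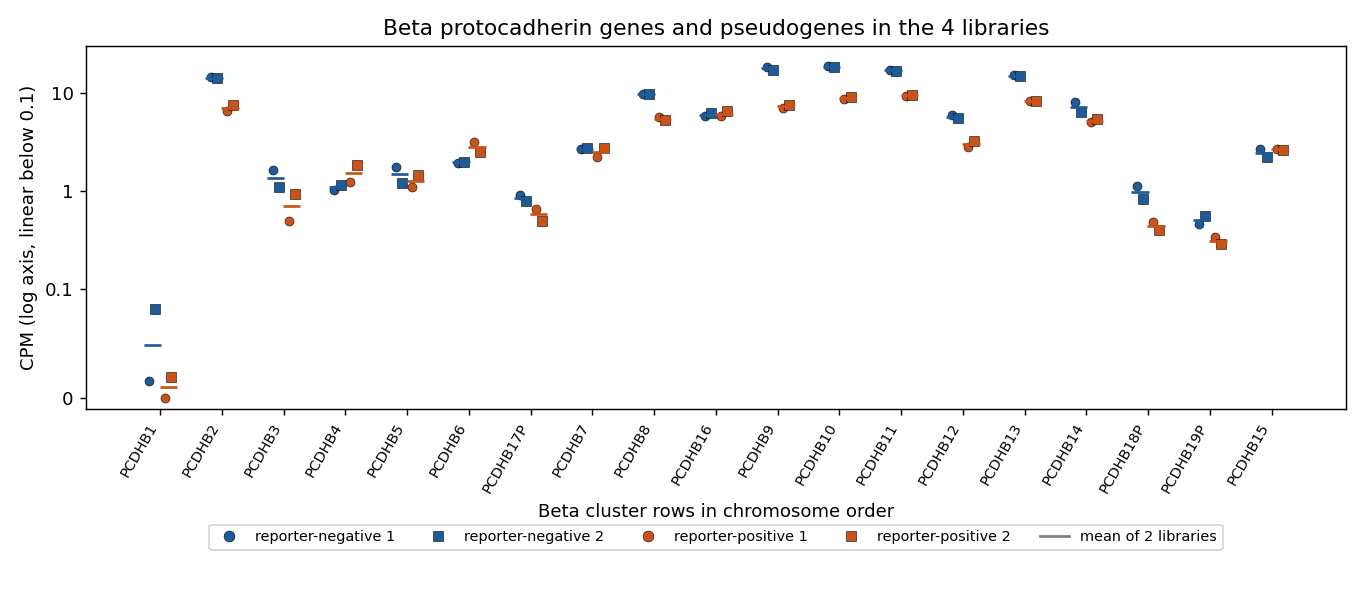
Level of each beta cluster gene and pseudogene in CPM (vertical axis, logarithmic above 0.1 and linear below) in chromosome order, with 1 point per library and a line at the mean of the 2 libraries of a line. PCDHB2 and PCDHB8 to PCDHB13 show well-separated blue (reporter-negative) and orange (reporter-positive) points, except PCDHB16, which lies among them and overlaps, while PCDHB4 and PCDHB6 lie higher in the positive line.

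A further listed row, the antisense span ENSG00000280029 of 108.698 kb, contains 13 beta members. It had 7509 and 6891 counts in the negative and 4157 and 3518 in the positive libraries. The summed counts of the 13 members equal 89.1% to 90.6% of these counts, a difference of 817 and 659 against 439 and 331. Whether the same reads are counted at both was not tested, since the strand setting is not known.

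In the gamma cluster, segments separate what the nested rows merge. As deposited, 22 of 22 coding gamma rows were lower, with log2 fold changes between -0.77 and -0.59. As segments, 9 of 22 were lower and 13 were not called, against 10.8% lower among the 30942 rows of the table in which segments replace nested rows, and log2 fold changes ran from -1.28 to 0.36 with a median of -0.55. Both positive libraries lay below both negative libraries in 20 of the 22 segments, against 29.5% of all rows of that table, and nothing is read from either count. By gene type, 5 of 12 A, 2 of 7 B and 2 of 3 C segments were lower, and nothing is read from these counts either. The types differ in the sequence of their first exons. The lower C segments include the last segment, which also holds the constant exons shared by all gamma genes.

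Most gamma reads came from a few segments. PCDHGB1 had 1582 and 1453 counts in the negative and 996 and 890 in the positive libraries, a log2 fold change of -0.57 (SE 0.08). PCDHGB2 had 1422 and 1290 against 818 and 757, a log2 fold change of -0.66 (SE 0.09). PCDHGA4, which lies between them, had 518 and 433 against 304 and 300, a log2 fold change of -0.53 (SE 0.13). In the negative line PCDHGB1 and PCDHGB2 were at 4.94 and 5.18 CPM per kb and PCDHGA4 at 1.52, the highest densities of the cluster. PCDHGB1 and PCDHGB2 share 11.0% of the 50-base words of their first exons, so some of their reads may be exchanged.

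The last segment holds PCDHGC5, introns and the constant exons shared by the gamma genes. It had 1693 and 1607 counts in the negative and 966 and 822 in the positive libraries. That is 26.4 ± 0.355 against 15.5 ± 0.218 CPM, a log2 fold change of -0.77 (SE 0.08). It took 22.1% and 22.9% of the gamma reads in the negative libraries and 20.4% and 19.7% in the positive libraries. The 95% exact Clopper-Pearson intervals of these shares, which cover counting error only, were 21.1% to 23.0% and 21.9% to 23.9% against 19.3% to 21.6% and 18.5% to 20.9%. The shares of the lines did not overlap, but the intervals of negative library 1 and positive library 1 did.

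The main segments held close shares of the gamma reads in both lines. PCDHGB1, PCDHGB2 and PCDHGA4 together held 45.9% and 45.2% in the negative and 44.7% and 46.6% in the positive libraries, which overlap. PCDHGB1 alone held 20.6% and 20.7% against 21.0% and 21.3%, and PCDHGB2 18.5% and 18.4% against 17.3% and 18.1%. These single shares do not overlap between the lines, but the differences are small beside those of the summed reads and were not tested. The 5 other B segments held 6.45% and 6.53% against 7.92% and 7.87%, and the 11 other A segments 21.0% and 21.0% against 22.8% and 21.6%, so both groups took a slightly larger part in the positive line.

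**Figure D3:**
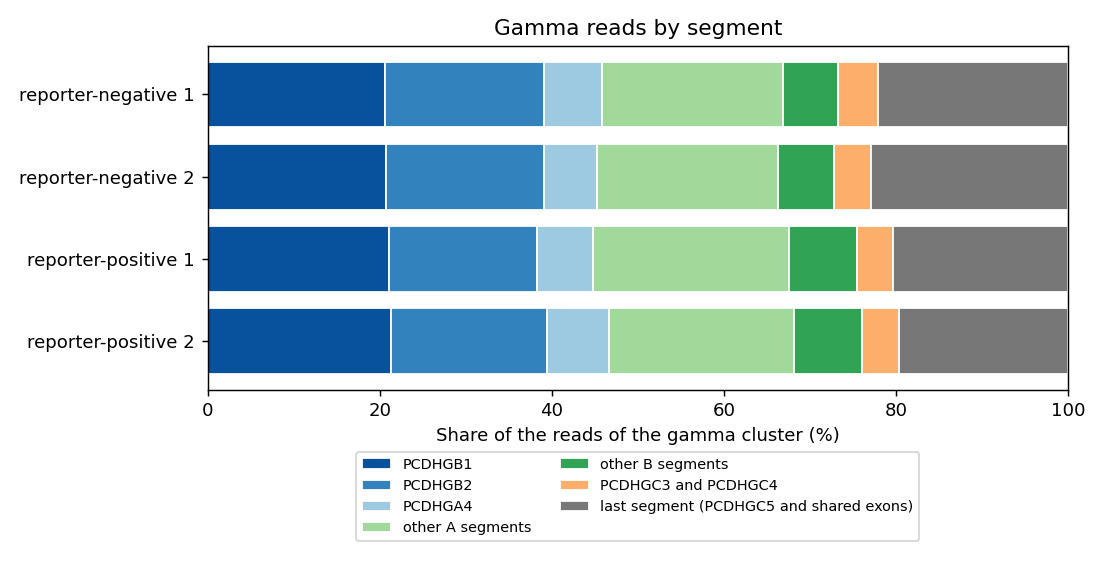
Share of gamma cluster reads (horizontal axis, percent) taken by groups of segments in each of the 4 libraries (1 bar per library). PCDHGB1, PCDHGB2 and PCDHGA4, the 3 blue blocks, reach 44.7% to 46.6% in each bar, and the grey block of the last segment is 22.1% and 22.9% in the negative and 20.4% and 19.7% in the positive bars.

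Segments with fewer reads differed more from each other. PCDHGA10 had 126 and 123 counts in the negative and 48 and 46 in the positive libraries, or 2.00 ± 0.0127 against 0.822 ± 0.0804 CPM, and its log2 fold change of -1.28 (SE 0.24) was the lowest of the gamma segments. PCDHGA1, the first gene of the cluster, had 165 and 121 against 64 and 68 counts, a log2 fold change of -0.99 (SE 0.23). PCDHGC3, a C-type gene, had 313 and 283 against 182 and 167, a log2 fold change of -0.65 (SE 0.15). PCDHGA12 had 208 and 187 against 124 and 106, spread over a segment of 45.4 kb that is mostly intron, and a log2 fold change of -0.66 (SE 0.18). PCDHGA11 had 101 and 111 against 77 and 41 counts, a log2 fold change of -0.74 (SE 0.25). In all of these segments both positive libraries lay below both negative libraries, as in 29.5% of all rows of the segment table. All of them were called lower, so nothing is read from this.

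Which of these segments passed depended on single libraries, but leaving a library out also leaves its line with a single library. Without negative library 1 the log2 fold changes of PCDHGA1, PCDHGA4, PCDHGA11, PCDHGA12 and PCDHGC3 were -0.77, -0.41, -0.83, -0.60 and -0.60. Without negative library 1, 4 of the 22 segments were lower, namely PCDHGB1, PCDHGB2, PCDHGA10 and the last segment, and PCDHGA1, PCDHGA4, PCDHGA11, PCDHGA12 and PCDHGC3 were not called. PCDHGA11 was also not called with DESeq2, with total count scaling, without negative library 2 or without positive library 2. PCDHGA5, with 281 and 227 against 180 and 162 counts, and PCDHGA9, with 95 and 91 against 50 and 55, were not called here but were lower with the library number as a block, total count scaling, the 1 CPM filter or without positive library 2. PCDHGB6 was lower with the 1 CPM filter, and PCDHGC4 without negative library 2, at a log2 fold change of -1.56.

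PCDHGA3 and PCDHGB7 were the gamma segments with log2 fold changes above 0. PCDHGA3 had 32 and 45 counts in the negative and 44 and 47 in the positive libraries, with overlapping CPM and a log2 fold change of 0.36 (SE 0.32). PCDHGB7 had 77 and 81 against 86 and 75 counts, or 1.21 and 1.32 against 1.37 and 1.43 CPM, which do not overlap, and a log2 fold change of 0.14 (SE 0.23). Neither was called. PCDHGA6 (258 and 244 against 248 and 158 counts) and PCDHGB3 (175 and 156 against 137 and 113 counts) had log2 fold changes of -0.20 (SE 0.16) and -0.29 (SE 0.18) and were not called. Across the 21 segments before the last, Spearman's coefficient between negative level per kb and log2 fold change was 0.14, against -0.65 in the beta genes, both as descriptions. PCDHGB8P and PCDHGB9P, pseudogenes inside the cluster, had 12 to 33 counts per library and were not called.

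**Figure D4:**
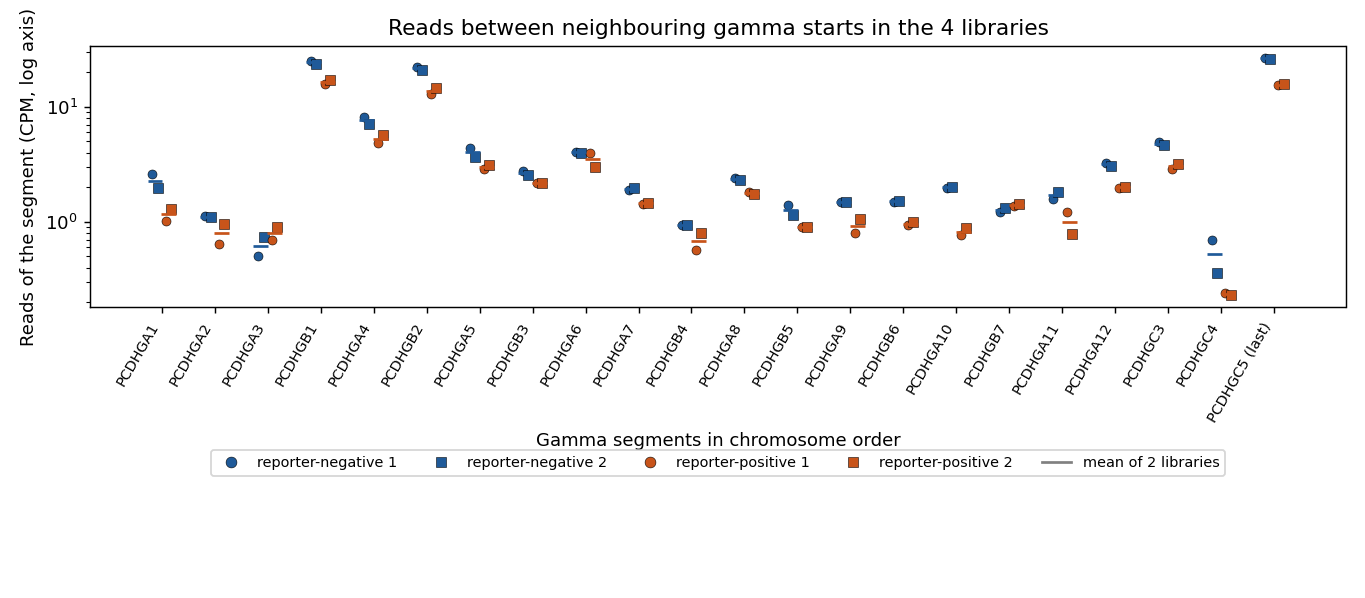
Reads of each gamma segment in CPM (logarithmic vertical axis) in chromosome order, with 1 point per library and a line at the mean of the 2 libraries of a line. PCDHGB1, PCDHGB2 and the last segment stand above 10 CPM in every library, and the positive points are below the negative ones in 20 of 22 segments (29.5% of all rows), the exceptions being PCDHGA3 and PCDHGB7.

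Alpha reads were so few that most single genes could not be measured. The 15 coding alpha rows as deposited were all lower, with log2 fold changes from -0.97 to -0.84, but they share their reads. Of 15 segments, 5 had enough reads to test and 3 were lower, where 10.8% of all rows of the segment table were lower. PCDHA7 had 23 and 29 counts in the negative and 9 and 7 in the positive libraries, a log2 fold change of -1.57 (SE 0.49). PCDHA1 had 14 and 18 against 4 and 4, a log2 fold change of -1.85 (SE 0.61). The last segment, with PCDHAC2 and the alpha constant exons, had 52 and 87 against 38 and 28, a log2 fold change of -0.96 (SE 0.32). PCDHA13 (36 and 44 against 21 and 16) and PCDHAC1 (34 and 29 against 16 and 20) were not called, though their libraries did not overlap.

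The alpha calls depend on single libraries. Without negative library 2, 1 of the 15 deposited rows was lower, that of PCDHA1, and 0 of the segments, with the log2 fold change of the PCDHA1 row at -0.67 and that of the last segment at -0.52. The PCDHA1 segment was not called when any 1 of the 4 libraries was left out, and PCDHA7 and the last segment were also not called without positive library 2, PCDHA7 in addition without positive library 1. PCDHA4 had 10 and 31 counts in the negative libraries, a spread within the line as wide as the gap between the lines. Densities in the negative line ran from 0.00652 to 0.0602 CPM per kb across the alpha segments, the highest in PCDHA7, against 5.18 in PCDHGB2. Over the 15 alpha segments Spearman's coefficient between length and summed count was 0.63, given as a description, so that longer stretches held more reads. The pseudogene PCDHA14 had 0 to 2 counts per library and was not tested.

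Most neighbouring genes on 5q31 were not called. Of 27 tested neighbours from a list of 29 outside the clusters, 3 were lower, 0 higher and 24 were not called, against 10.9% lower among all rows, and their median log2 fold change was -0.03. TAF7, a subunit of the general transcription factor TFIID whose gene lies between the beta and gamma clusters, had 98.1 ± 2.62 CPM in the negative and 103 ± 10.1 CPM in the positive line and was not called. TAF7 did pass as higher without positive library 1, at a log2 fold change of 0.17. SLC25A2, a mitochondrial carrier gene in the same interval, had 0, 6, 2 and 4 counts and was not tested. The lower neighbours were PCDH1, a protocadherin outside the clusters with its own promoter and exons, ANKHD1 and ZMAT2. PCDH1 had 6.58 and 7.18 CPM against 4.35 and 4.73 CPM, a log2 fold change of -0.60 (SE 0.13) at an adjusted p of 0.00197 in edgeR's test, while ANKHD1 and ZMAT2 were at -0.27 and -0.24. The calls of ANKHD1 and ZMAT2 were lost without either negative library, and that of ANKHD1 also without positive library 2.

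**Figure D5:**
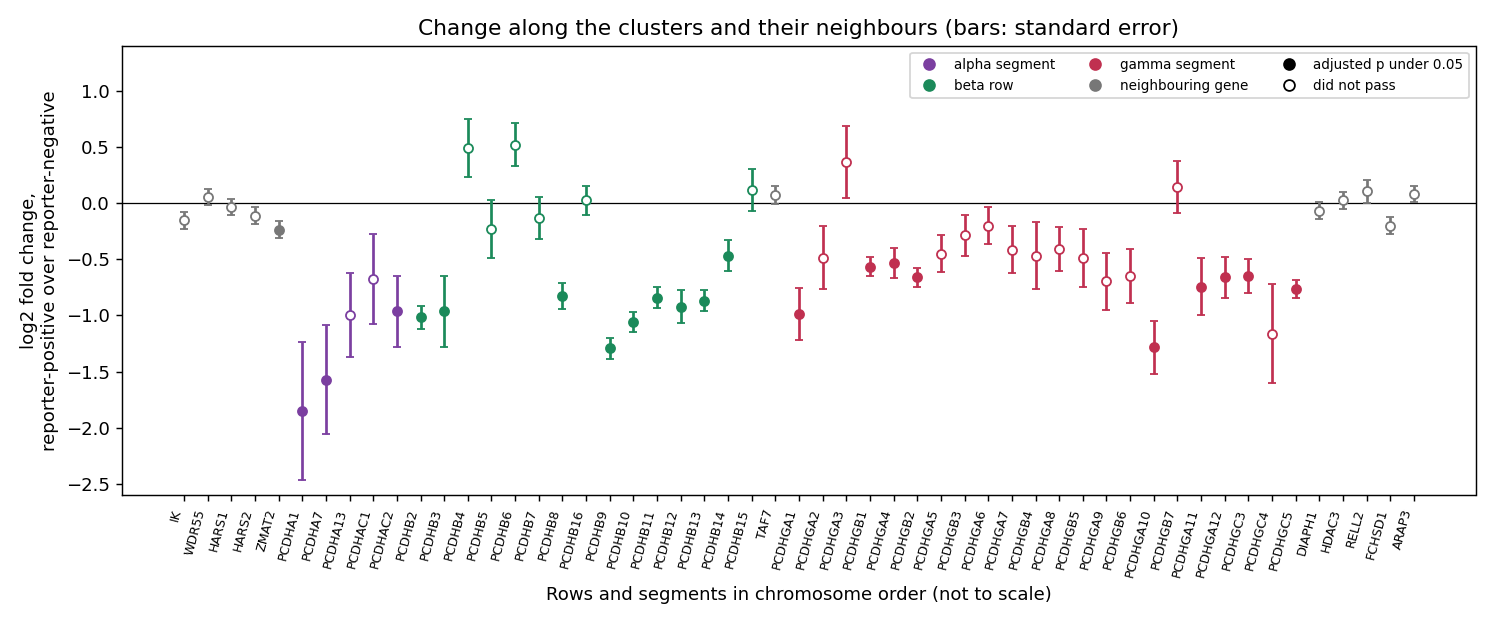
Log2 fold change of positive over negative (vertical axis, bars the standard error) for tested alpha segments, beta genes, gamma segments and nearest neighbouring genes in chromosome order, not to scale. Filled points passed an adjusted p of 0.05. Points in the clusters lie mostly between -1.85 and 0, with PCDHB4, PCDHB6, PCDHGA3 and PCDHGB7 among those above 0, while the grey neighbours stay near 0, with ZMAT2 at -0.24 the only filled one.

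Genes of the machinery known to act on these promoters were examined as lists. Among 12 genes of CTCF, cohesin and insulation, 2 were higher, 1 lower and 9 not called, with a median log2 fold change of -0.04. Of all tested rows, 11.6% were higher and 10.9% lower. STAG2, a cohesin subunit, was higher, with 105 and 108 CPM in the negative and 166 and 173 CPM in the positive libraries, a log2 fold change of 0.67 (SE 0.07, edgeR adjusted p 6.19e-07). SMC1A, a core part of the cohesin ring, was at 0.20 (adjusted p 0.0487), a call lost under 6 of the alternatives tried, and WIZ, a zinc-finger protein, at -0.23 (adjusted p 0.0344), lost under 4. CTCF was at 48.4 ± 0.515 against 45.9 ± 2.58 CPM and was not called (adjusted p 0.520). Whether any of these differences bears on the protocadherins was not tested.

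Of 19 genes of silencing and DNA methylation, 2 were higher, 3 lower and 14 not called, with a median of -0.00. Among all tested rows the shares were 11.6% higher and 10.9% lower. TET1, an enzyme that oxidises methylated cytosine, was lower at 22.9 ± 0.581 against 17.8 ± 0.612 CPM (adjusted p 0.00183), and EHMT1, a histone methyltransferase, at 65.2 ± 4.21 against 51.8 ± 2.62 CPM (adjusted p 0.00245). DNMT3A, a DNA methyltransferase, was higher at 26.0 ± 0.272 against 32.4 ± 0.550 CPM (adjusted p 0.00376), and so was the heterochromatin protein gene CBX5 at 116 ± 3.50 against 143 ± 6.63 CPM (adjusted p 0.00472). SMCHD1, a repressor known to act on these clusters, had 92.1 ± 0.479 against 106 ± 5.49 CPM and did not pass (adjusted p 0.0568), though it did under 4 alternatives. The call of DNMT3A was lost with total count scaling and without either negative library, that of CBX5 without either negative library, and those of TET1 and EHMT1 without negative library 1. All of these p-values are from edgeR's quasi-likelihood test, adjusted over all rows.

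Of 19 genes for partners that cut, bind or signal below protocadherins, 4 were higher, 3 lower and 12 not called, with a median of -0.04. These counts stand beside 11.6% higher and 10.9% lower among all tested rows. The kinase gene FYN was higher at 36.0 ± 2.21 against 47.8 ± 1.38 CPM (edgeR adjusted p 3.60e-04). CYFIP2 and BRK1, parts of the WAVE complex that the cytoplasmic ends of some protocadherins recruit to build actin, were lower at log2 fold changes of -0.79 and -0.38. Of the same complex, ABI2 was higher at 0.28, a call lost with total count scaling and without either negative library. WASF3, also of that complex, was higher at 0.30, while WASF1, WASF2, NCKAP1, CYFIP1 and ABI1 were not called. The protease gene ADAM10 was lower at -0.26 and ADAM17 higher at 0.24. Whether the calls of WASF3, ADAM10 and ADAM17 held under the alternatives was not examined.

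Marker lists were read in the same way, beside the same shares of 11.6% higher and 10.9% lower among all tested rows. Of 12 neuronal markers, 10 were tested, with SYT1 higher, GRIN1 lower and 8 not called, and their summed level was 40.8 and 41.6 CPM in the negative and 47.3 and 45.6 CPM in the positive libraries. None of the 12 was at 0 in all libraries. The labels call the cells mesenchymal, and of 8 mesenchymal markers VIM and CAV1 were lower, CD44 and MSN higher and 4 not called, with VIM at 2670 ± 63.2 against 1300 ± 60.7 CPM. Of 8 luminal markers FOXA1 was higher at 0.0877 against 0.749 CPM, KRT8 and KRT18 were lower, and 5 were not called. The calls of SYT1, CD44, MSN and KRT18 were lost without either negative library, that of KRT8 without negative library 2, those of SYT1 and CD44 with total count scaling, and that of CD44 without positive library 2. The part of these markers in the protocadherin values was not tested.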

How the data were processed

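The 4 RNA libraries were analysed from the raw read counts that the authors deposited, in a table of Ensembl genes by library. Per the submitters' processing notes, HISAT2, Bowtie2, DESeq2 and the build hg19 were used, with no roles given. The counting tool, annotation and strand setting were not given in the sources used here. Each of the 43714 identifiers is in GENCODE release 29, and 43289 have a symbol in the name table. Positions and nesting are from that release on GRCh38, and promoters from RefSeq on GRCh38.p14.

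Tests used the robust quasi-likelihood F test of edgeR 4.0.16 (R 4.3.3) on the line alone, after TMM scaling and a filterByExpr filter with a minimum count of 10 and a minimum total count of 15. P-values were adjusted by Benjamini-Hochberg over all rows kept and called at 0.05. The test was repeated on a table in which nested alpha and gamma rows were replaced by segments, and it was tested on simulated data. CPM values use TMM library sizes. Total counts of 55894092 to 63034563 leave little counting error for well-covered genes, while alpha segments rest on few reads. Within a line, chi-square divided by its degrees of freedom was 36.7 and 18.9, so no library was a copy. Deviations of same-numbered libraries correlated at 0.00788. This gives no sign of pairing, but with 2 libraries a line it cannot show that there was none.

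Members, lists and markers were chosen with earlier results of these data known. The rule for naming took the outer and inner spans, the members or segments with the smallest adjusted p or highest CPM in each cluster, and from each list up to 4 passing genes with CTCF, SMCHD1, TAF7 and SLC25A2. Nested spans are given mostly as segments, and many list genes by the mean of each line or the fold change alone. Members and list genes outside this rule were named after their values were seen. Sequence searches used Python 3.11.15 with numpy 2.4.6 and scipy 1.17.1. The alternatives tried were no filter, RLE or total count scaling, a filter of 1 CPM in 2 libraries, DESeq2 1.42.0, limma-voom (limma 3.58.1), the library number as a block and leaving out each library. A beta total without pseudogenes was added after the data were seen.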

Additional observations from a re-analysis of the deposited data

How the results depend on the processing

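Of the counts and totals, 172 values under alternatives were labelled as kept and 23 as moved. A count was labelled as kept within a set fold range of its value in edgeR's test as described. By that label 34 lower members, against 48 in that test, still counted as kept. Total count scaling shifted the median of all log2 fold changes by -0.08, and with it the higher rows numbered 2270 as deposited and 2256 in the segment table, and the log2 ratios of the beta and gamma totals were -0.85 and -0.69. Leaving out each library gave 2025 to 4457 lower and 2333 to 4704 higher rows as deposited, and 1986 to 4436 lower and 2322 to 4703 higher rows in the segment table, the lowest of each without negative library 1. Among members, leaving out each library gave 34 to 47 lower and 0 to 1 higher rows, 1 to 15 lower alpha rows, 0 to 1 higher beta rows, 0 to 3 lower alpha segments and 4 to 10 lower gamma segments. The lowest alpha counts came without negative library 2, and 0 alpha segments were also lower without positive library 2. RLE scaling and the replicate block each gave 1 higher member, PCDHB6, and the block left 48 members, 3 alpha and 11 gamma segments lower. The numbers are not shown to pair the libraries. A filter of 1 CPM left 0 lower alpha segments because it removed the called ones, and DESeq2 also gave 0, where PCDHAC2 did not pass and PCDHA1 and PCDHA7 had no adjusted p. For single rows and segments 1090 values were unchanged in call and direction, 82 lost and 19 gained a call, and 9 changed sign, none of them called. PCDHB16 was at -0.062 and TAF7 at -0.014 with total count scaling, and leaving out each library gave ranges of -0.49 to 0.087 for PCDHB5, -0.30 to 0.024 for PCDHB7, -0.020 to 0.27 for PCDHB15, -0.067 to 0.11 for PCDHB16, -0.74 to 0.033 for PCDHGB8P and -0.037 to 0.17 for TAF7. PCDHB16 also changed sign without negative library 1, at -0.026. The beta total over coding genes alone, added after the data were seen, had a log2 ratio of -0.76. A beta total without overlapping rows gave no value, since every beta row overlaps another listed row. For the other changes the cause was not tested. Depth limits the alpha segments, of which 10 of 15 could not be tested.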
